A study of Homo sapiens with 18 samples.

Results

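Mitotic kinases, kinetochore proteins and subunits of the anaphase-promoting complex (APC/C) were examined as one group of genes in polysome profiles of HEK293 cells. With earlier results of these data known, the group was defined by 54 gene symbols and not by any measured value. Of these, 53 were in the table of 13661 genes, and all 53 were among the 12720 genes kept after a filter on low counts; MAD1L1 was not analysed here. HEK293 is an established line derived from human embryonic kidney. Every library used here came from HEK293 cells that received DMSO vehicle for 12 h, with no other agent and no cell cycle synchronisation named in the labels. Each of 3 biological replicates, which the labels also number as batches, was spun through a sucrose gradient and collected as monosomes, light polysomes and heavy polysomes, giving 9 libraries. The series also holds 9 libraries of cells given 100 µM minocycline, an antibiotic; these were not analysed here, so every comparison lies within the vehicle control.

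Entry into mitosis is set by the kinase CDK1, which WEE1 and PKMYT1 hold inactive by phosphorylation and the CDC25 phosphatases release. Aurora and Polo-like kinases then build the spindle, while the kinetochore, assembled on centromeric chromatin, captures microtubules and produces the checkpoint signal that restrains the APC/C. Once that signal ends, the APC/C with its coactivator CDC20 marks securin and cyclin B for destruction, separase cuts cohesin, and the chromatids part. Many of these proteins are made and destroyed once per cell cycle. In polysome profiling an mRNA found with a single ribosome lies in the monosome fraction, and an mRNA that carries many ribosomes lies in heavy polysomes.

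The 9 libraries held between 13447139 and 24441159 reads. Mitotic genes took 0.206% to 0.324% of the reads in monosome libraries, with 0.529% to 0.602% for light and 0.527% to 0.640% for heavy polysome libraries. Mitochondrially encoded mRNAs took 26.0%, 3.87% and 19.5% of the monosome reads of replicates 1, 2 and 3, and ribosomal protein mRNAs took 38.1%, 53% and 33.6%. Light polysome library 2 stood apart: on the log2 scale across genes it correlated at 0.894 on average with the other light polysome libraries, which correlated at 0.985 with each other, and at 0.940 with the heavy polysome libraries. All 9 genes listed as HEK293 markers were in the table, with median normalized counts from 56.7 for KRT8 to 5427 for VIM. Of 9 markers of other cell types only COL1A1 and COL3A1 were in the table, at medians of 53.9 and 7.47, and the other 7 were not analysed here. These are bulk lysates, in which fewer cells that carry an mRNA and less of it per cell cannot be told apart.

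Mean ribosome load (MRL) is the average number of ribosomes per mRNA implied by an mRNA's spread over the fractions, with 1 ribosome assigned to monosomes, 2.5 to light and 6 to heavy polysomes. Values are relative between genes, because each fraction was scaled to the same typical gene; the median gene had an MRL of 3.17. For each gene, limma's moderated test asked whether log2 MRL differed from that of the median gene over the 3 gradients. All tests were two-sided, with p-values adjusted by the Benjamini-Hochberg method over 12720 genes and called at 0.05.

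The mitotic mRNAs spread over most of the range of MRL, from 1.37 for CDC26 to 4.57 for CDC20. Against the median gene, 16 of 53 were higher (30.2%, where 22.0% of all genes were) and 10 were lower (18.9%, where 24.7% of all genes were), by limma. The remaining 27 did not pass. The median deviation of all 53 was 0.12 on the log2 scale, beside 0.01 over all genes tested. Calls followed the roles of the proteins unevenly. All 5 regulators of CDK1, both checkpoint adaptors and both APC/C coactivators were higher. All 4 of the small APC/C subunits in the group were lower, and 0 of the 9 larger APC/C subunits were called. Without replicate 2, which holds the light polysome library that stood apart, 20 were higher and 13 lower. Without replicate 1, 8 were higher and 9 lower. Where an alternative fit, here or below, is given without its share of all genes, mitotic genes were not compared with all genes. A further measure replaced MRL with the log2 ratio of light plus heavy polysome signal to monosome signal. By that ratio 9 were higher (13.1% of all genes were) and 6 were lower (15.5% of all genes were). That measure ended 13 of the 26 calls by limma, those of AURKA, PLK1, CDC25C, WEE1, BUB3, FZR1, NUF2, INCENP, TPX2, CENPA, CENPH, MIS12 and BIRC5. The same measure called CENPE (adjusted p = 0.0329) and CENPW (0.0277) higher by limma. By it 3 of the 5 regulators of CDK1, 1 of 2 checkpoint adaptors and 1 of 2 coactivators were higher. All 4 of the small APC/C subunits were lower.

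**Figure D1:**
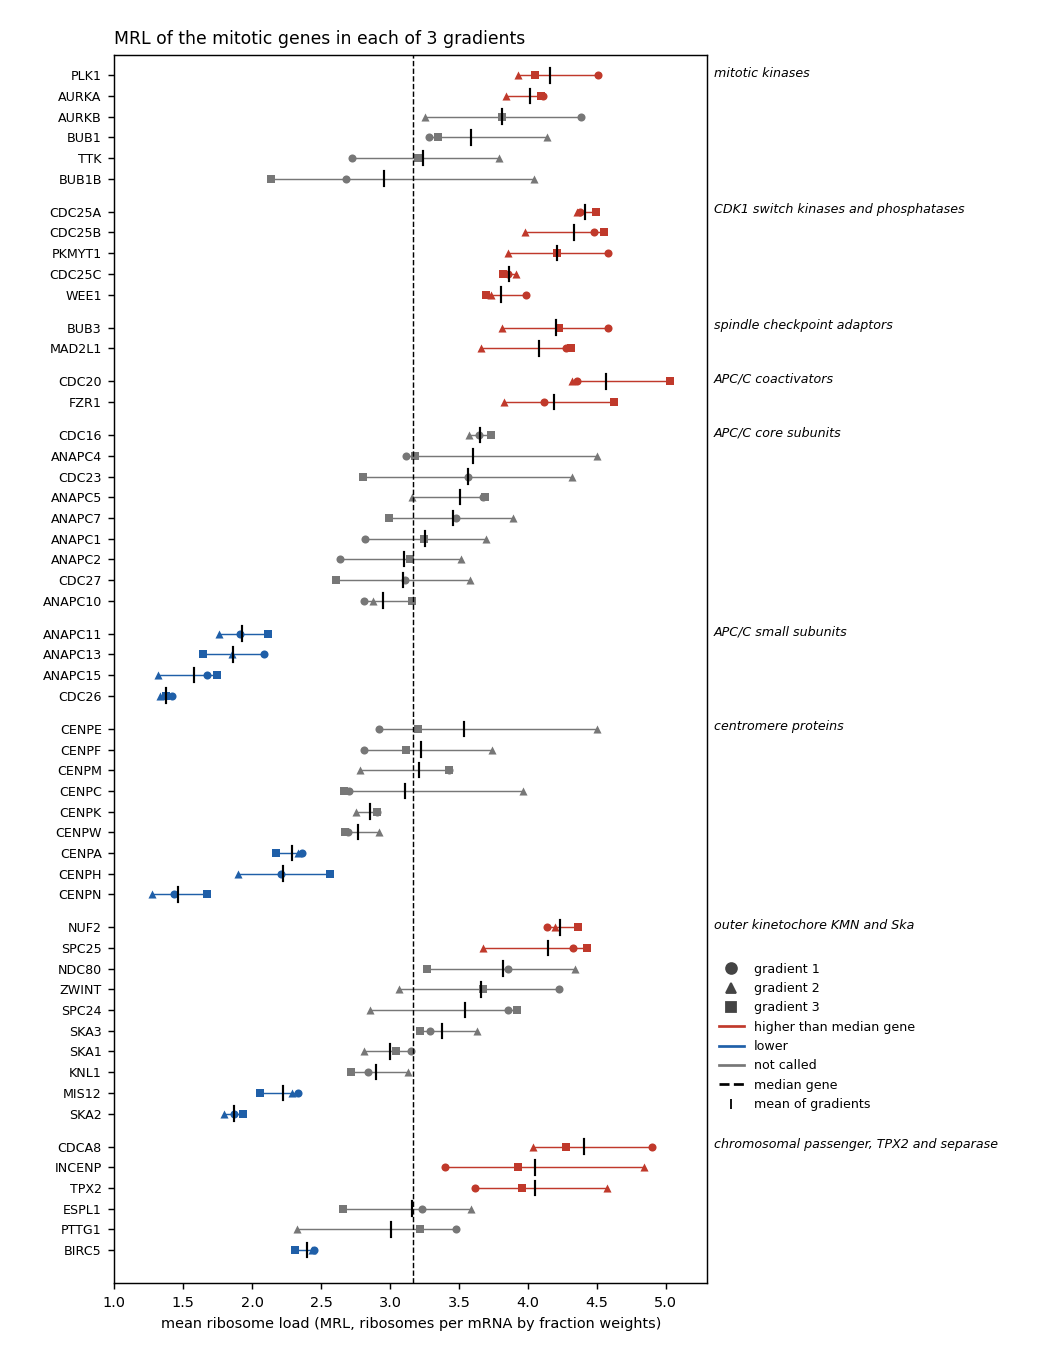
MRL (ribosomes per mRNA by fraction weights) of each mitotic gene in gradients 1, 2 and 3, grouped by role, with the mean of the gradients as a vertical bar; colour gives the call of limma's test against the median gene (dashed line). The CDK1 regulators lie to the right of the median gene in all 3 gradients, the small APC/C subunits lie to its left, and BUB1B, CENPE and CENPC have 1 gradient far from the other two.

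All 5 regulators of CDK1 were higher than the median gene. CDC25A, the phosphatase that acts at entry into S phase and mitosis (ENSG00000164045, GRCh38 chromosome 3, 48157146 to 48188402, minus strand), had an MRL of 4.38, 4.36 and 4.50 in gradients 1, 2 and 3. Its heavy polysome share was 61.2%, 60.8% and 63.6%, with little spread between gradients. Its log2 deviation from the median gene was 0.48 (SE 0.07, adjusted p = 0.00158 by limma), and all 3 gradients were above it. CDC25B, a phosphatase that starts CDK1 activation at the centrosome, had 4.48, 3.98 and 4.55 and was lowest in gradient 2 (0.45, SE 0.08, adjusted p = 0.00283 by limma). CDC25C, which amplifies CDK1 activity, had 3.86, 3.91 and 3.82, the most even of the 5 (0.29, SE 0.08, adjusted p = 0.018 by limma). PKMYT1, the membrane-bound inhibitor of CDK1, had 4.58, 3.85 and 4.21, and WEE1, its nuclear counterpart, had 3.99, 3.73 and 3.70. In each gradient WEE1 lay below PKMYT1 (WEE1 minus PKMYT1 -0.41 ± 0.25 ribosomes, SD, n = 3), a difference that was not tested. Without replicate 1, CDC25C, WEE1 and PKMYT1 no longer passed (adjusted p = 0.161, 0.291 and 0.0702 by limma), and without replicate 3 CDC25C and WEE1 did not (0.0921 and 0.106). Of the annotated exonic bases of PKMYT1, 24.5% are shared with PAQR4 on the opposite strand; whether counting used strand is not given in the sources used here, so the reads of that pair cannot be separated.

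Among the mitotic kinases, PLK1 and AURKA were higher and the other 4 were not called. PLK1, the Polo-like kinase of centrosomes and kinetochores (ENSG00000166851, chromosome 16, 23677656 to 23690367), had an MRL of 4.51, 3.92 and 4.05 (log2 deviation 0.39, SE 0.08, adjusted p = 0.0055 by limma). AURKA, the spindle pole kinase (ENSG00000087586, chromosome 20, 56369389 to 56392337), had 4.11, 3.84 and 4.09 (0.34, SE 0.08, adjusted p = 0.0086 by limma). Both were above the median gene in every gradient. AURKB, the kinase of the chromosomal passenger complex, had 4.38, 3.25 and 3.81 and missed the threshold (0.26, adjusted p = 0.0641 by limma); without replicate 2 it passed at 0.37 (adjusted p = 0.00188). AURKA lay above AURKB in 2 of 3 gradients, with a mean difference of 0.20 ± 0.44. BUB1, the checkpoint kinase that phosphorylates centromeric histone H2A, had 3.28, 4.14 and 3.35. BUB1B, which encodes the checkpoint protein BubR1 (ENSG00000156970, chromosome 15, 40161023 to 40221136), had 2.68, 4.04 and 2.14, the widest spread of the 53 genes. Its heavy polysome share was 24.9%, 52.7% and 15.4%, and its monosome share was 46.0%, 20.2% and 60.0%, so monosomes held the most signal of the 3 fractions in gradients 1 and 3 and heavy polysomes in gradient 2. Without replicate 2 it was called lower (adjusted p = 0.0103 by limma), and without replicate 1 AURKA and PLK1 were not called (0.0977 and 0.0875), nor was AURKA without replicate 3 (0.0524). BUB1 had the higher MRL of the pair in 3 of 3 gradients, by 0.63 ± 0.56. TTK, the kinase that starts checkpoint signalling, had 2.72, 3.79 and 3.21.

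The checkpoint adaptors BUB3 and MAD2L1 were both higher. BUB3, which docks BUB1 and BubR1 on the kinetochore, had 4.58, 3.81 and 4.22 (0.41, SE 0.08, adjusted p = 0.00559 by limma). MAD2L1, the MAD2 protein that binds CDC20 and blocks the APC/C, had 4.28, 3.66 and 4.31 (0.36, SE 0.09, adjusted p = 0.00956 by limma). Gradient 2 gave the lowest value for each. In that gradient MAD2L1 had 55.0% of its signal in light polysomes, against 23.9% and 28.6% in gradients 1 and 3. BUB3 and MAD2L1 had means of 4952 and 4248 normalized counts per library, which are not corrected for transcript length. Neither passed without replicate 1 (adjusted p = 0.0769 for BUB3 and 0.0945 for MAD2L1 by limma), and without replicate 3 MAD2L1 did not pass (0.0594).

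The APC/C divided by subunit. CDC20, the mitotic coactivator that brings securin and cyclin B to the complex (ENSG00000117399, chromosome 1, 43358955 to 43363203), had the highest MRL of the 53 genes, 4.35, 4.32 and 5.03. Heavy polysomes held 62.7%, 60.2% and 77.0% of its signal, and CDC20 lay 0.53 above the median gene (SE 0.08, adjusted p = 0.00157 by limma). FZR1, the coactivator CDH1 that replaces CDC20 after anaphase, had 4.11, 3.83 and 4.62 (0.40, SE 0.08, adjusted p = 0.00625 by limma; 0.0544 without replicate 3). CDC20 was above FZR1 in 3 of 3 gradients, by 0.38 ± 0.13.

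None of the 9 larger subunits was called against the median gene with all 3 replicates. Their means ran from 2.95 for ANAPC10, which helps to bind substrates, to 3.65 for CDC16, a scaffold subunit. By limma 0 of 9 passed after adjustment, and 1 was higher and 0 were lower at an unadjusted p under 0.05. Without replicate 2, CDC16 (adjusted p = 0.0268) and ANAPC5 (0.0278) were called higher, and CDC16 also was with the mean gene as centre (0.0266), by limma. CDC16 was even, with 3.65, 3.58 and 3.73, whereas ANAPC10 had 2.81, 2.88 and 3.16. ANAPC4, CDC23, CDC27, ANAPC7, ANAPC1 and ANAPC2 were all highest in gradient 2, with ANAPC4 at 3.12, 4.50 and 3.18 and CDC23 at 3.56, 4.32 and 2.80. ANAPC5, with 3.68, 3.16 and 3.69, was lowest there, as CDC16 was. CDC27 and ANAPC1 have near-identical partial copies elsewhere in the genome, and how shared reads were counted is not given, so their values are uncertain.

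All 4 of the small subunits in the group were lower. CDC26, which stabilises the scaffold subunit CDC16 (ENSG00000176386, chromosome 9, 113255835 to 113275589, minus strand), had the lowest MRL of the 53 genes, 1.42, 1.33 and 1.38. Monosomes held 78.6%, 87.6% and 82.0% of its signal (log2 deviation -1.20, SE 0.09, adjusted p = 0.000112 by limma). ANAPC15, which promotes turnover of CDC20 within the checkpoint complex, had 1.67, 1.31 and 1.74 (-1.02, SE 0.11, adjusted p = 0.000436 by limma). ANAPC13, a small stabilising subunit, had 2.08, 1.85 and 1.64 (-0.77, SE 0.10, adjusted p = 0.00095 by limma). ANAPC11, the RING subunit that carries out ubiquitin transfer, had 1.91, 1.76 and 2.11 (-0.72, SE 0.10, adjusted p = 0.00107 by limma). No gradient of these 4 genes reached the lowest gradient of any of the 9 larger subunits or 2 coactivators, and each stayed lower when any 1 replicate was left out. Exons of CDC26, ANAPC15 and ANAPC13 overlap genes on the opposite strand, by 17.7% with PRPF4, 27.1% with LRTOMT and 13.0% with CEP63, whose MRLs were 4.41, 1.50 and 3.31.

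These proteins are short, and the coding sequences of CDC26, ANAPC13 and ANAPC11 are shown beside that of CENPW, a histone-fold protein of the centromere. The 4 coding sequences have similar lengths of 258, 225, 255 and 267 nt, for 85, 74, 84 and 88 codons before the stop, but CENPW lay mostly in light polysomes. They are given 5′ to 3′ from GENCODE release 29 transcripts on GRCh38, with the start and stop codons in capitals.
CDC26: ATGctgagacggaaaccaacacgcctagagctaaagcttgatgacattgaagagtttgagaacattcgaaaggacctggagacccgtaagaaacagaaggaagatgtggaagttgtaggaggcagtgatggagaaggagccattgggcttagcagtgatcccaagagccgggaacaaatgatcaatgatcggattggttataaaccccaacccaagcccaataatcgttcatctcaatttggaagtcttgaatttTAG
ANAPC13: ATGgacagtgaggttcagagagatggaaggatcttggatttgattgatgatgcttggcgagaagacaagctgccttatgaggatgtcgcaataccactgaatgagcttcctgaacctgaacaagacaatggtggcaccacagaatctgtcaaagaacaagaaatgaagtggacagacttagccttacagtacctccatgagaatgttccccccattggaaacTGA
ANAPC11: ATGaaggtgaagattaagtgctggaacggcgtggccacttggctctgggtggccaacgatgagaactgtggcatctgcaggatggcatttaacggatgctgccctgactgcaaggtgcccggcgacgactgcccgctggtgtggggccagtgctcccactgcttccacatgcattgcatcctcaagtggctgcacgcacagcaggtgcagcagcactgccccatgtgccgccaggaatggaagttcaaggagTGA
CENPW: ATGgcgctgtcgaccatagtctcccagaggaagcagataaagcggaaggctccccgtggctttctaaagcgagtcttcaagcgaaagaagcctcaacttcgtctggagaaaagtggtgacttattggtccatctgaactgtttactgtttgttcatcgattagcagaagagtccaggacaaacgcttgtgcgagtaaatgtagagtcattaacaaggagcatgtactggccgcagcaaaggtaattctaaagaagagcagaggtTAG
CENPW (ENSG00000203760, chromosome 6, 126340174 to 126348875) had an MRL of 2.70, 2.92 and 2.67, and light polysomes held 67.3%, 65.4% and 71.1% of its signal. Its monosome share, 18.9%, 15.8% and 16.8%, stayed far below the 59.3% ± 9.9 (SD, n = 3) of ANAPC13. In each gradient ANAPC13 carried fewer ribosomes than CENPW, with differences of -0.61, -1.07 and -1.03; this pair was chosen after the values were seen, and the difference was not tested.

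**Figure D2:**
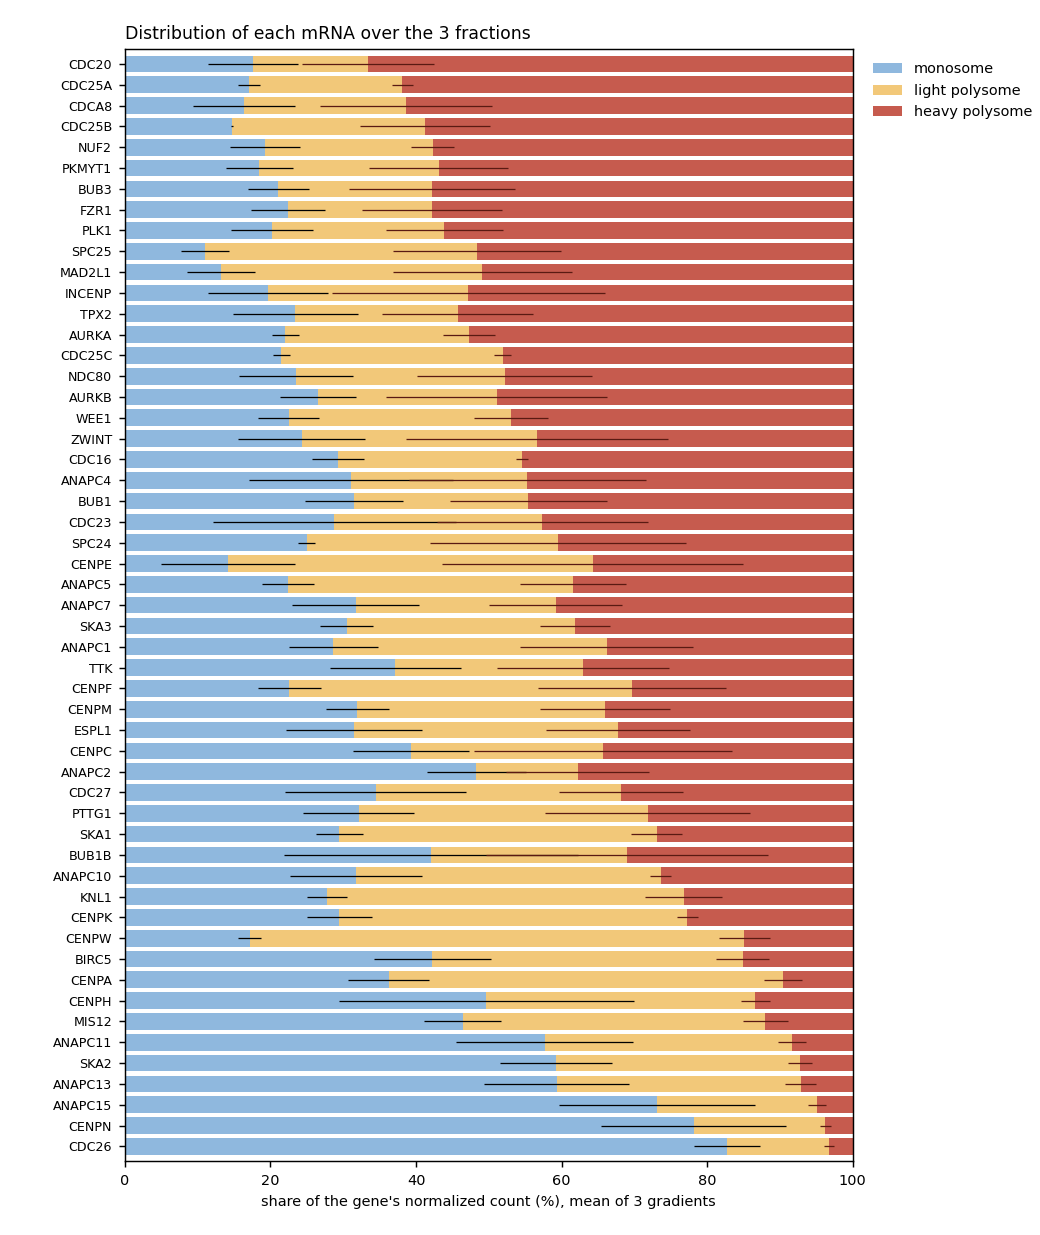
Share of each gene's normalized count in monosomes, light polysomes and heavy polysomes, in percent, as the mean of 3 gradients; genes are ordered by MRL, and lines give the SD of the monosome share (at its right edge) and of the heavy polysome share (at its left edge). CDC20 has 66.6% in heavy polysomes, CENPW has 67.9% in light polysomes, and CDC26 has 82.7% in monosomes.

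Centromere proteins had 0 of 9 genes higher (22.0% of all genes were) and 3 lower (33.3%, where 24.7% of all genes were) by limma. The counts were the same at an unadjusted p under 0.05. They changed with the measure. The ratio of polysome to monosome signal gave 2 higher (13.1% of all genes were) and 1 lower (15.5% of all genes were). Centring on genes of like coding length, described below, gave 2 higher (24.4% of all genes) and 2 lower (24.2%). CENPN, which reads the CENP-A nucleosome (ENSG00000166451, chromosome 16, 81006498 to 81033114, plus strand), had an MRL of 1.43, 1.27 and 1.67 (log2 deviation -1.13, SE 0.10, adjusted p = 0.00026 by limma). Monosomes held 77.9%, 90.9% and 65.6% of it. Exons of CENPN overlap those of CMC2 on the opposite strand over 457 nt, 12.8% of its exonic bases, and CMC2 had an MRL of 2.40. CENPH, a subunit of the inner kinetochore, had 2.21, 1.89 and 2.57 (-0.52, SE 0.11, adjusted p = 0.00625 by limma). CENPA, the histone H3 variant that marks centromeres, had 2.36, 2.34 and 2.17 (-0.47, SE 0.09, adjusted p = 0.00457 by limma), with most of its signal in light polysomes (54.2% ± 6.9) and 9.55% ± 2.64 in heavy polysomes. The 3 genes differed in where they lay: CENPN was monosomal, CENPA was in light polysomes, and CENPH changed between gradients.

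The long centromere mRNAs varied widely between gradients. CENPE, the kinesin that carries chromosomes along microtubules (ENSG00000138778, chromosome 4, 103105806 to 103198409), had 2.92, 4.50 and 3.20. In gradients 1 and 3 it was mostly in light polysomes (53.9% and 61.6%), and in gradient 2 mostly in heavy polysomes (59.5%). CENPC, which joins centromeric chromatin to the outer kinetochore, had 2.70, 3.96 and 2.67. CENPF, a large coiled-coil protein of the outer kinetochore, had 2.81, 3.74 and 3.12. All 3 were highest in gradient 2, and none had a called MRL. CENPK and CENPM, inner kinetochore subunits, had means of 2.85 ± 0.09 and 3.21 ± 0.37 (SD, n = 3).

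Components of the outer kinetochore went both ways, with 2 higher and 2 lower among 10. These were 20% each, where 22.0% of all genes were higher and 24.7% lower. NUF2, which forms the microtubule-binding end of the NDC80 complex (ENSG00000143228, chromosome 1, 163266576 to 163355764), had 4.14, 4.19 and 4.36 (0.42, SE 0.07, adjusted p = 0.0031 by limma). SPC25, which anchors the other end of that complex, had 4.33, 3.68 and 4.43 (0.38, SE 0.09, adjusted p = 0.00805 by limma, and 0.0675 without replicate 1). The other mRNAs of that complex were not called: NDC80 had 3.86, 4.34 and 3.27, and SPC24 had 3.86, 2.86 and 3.92. SPC24 lay below SPC25 in 3 of 3 gradients (SPC24 minus SPC25 -0.60 ± 0.19, SD, n = 3), and NDC80 below NUF2 in 2 of 3. On the low side, SKA2, a small subunit of the microtubule-binding Ska complex (ENSG00000182628, chromosome 17, 59109951 to 59155269), had 1.86, 1.80 and 1.93 (-0.76, SE 0.09, adjusted p = 0.00065 by limma). SKA1 and SKA3, its partners, had means of 3.00 ± 0.17 and 3.38 ± 0.22, so no gradient of SKA2 reached either of them. MIS12, which connects the NDC80 complex to the centromere, had 2.33, 2.29 and 2.05 (-0.51, SE 0.09, adjusted p = 0.00349 by limma). KNL1, the scaffold that recruits the BUB proteins, had 2.84, 3.13 and 2.72. ZWINT, which binds KNL1, ranged from 3.06 in gradient 2 to 4.23 in gradient 1.

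Subunits of the chromosomal passenger complex, which corrects faulty attachments at the centromere, lay on opposite sides of the median gene. CDCA8, or borealin (ENSG00000134690, chromosome 1, 37692418 to 37709719), had 4.90, 4.04 and 4.28 (0.47, SE 0.08, adjusted p = 0.00285 by limma). INCENP, the scaffold that activates AURKB, had 3.40, 4.84 and 3.93 (0.34, SE 0.11, adjusted p = 0.0284 by limma), rested on as few as 14 reads in a library, and did not pass without replicate 2 (0.0551). BIRC5, or survivin (ENSG00000089685, chromosome 17, 78214186 to 78225636), had 2.45, 2.43 and 2.31 (-0.40, SE 0.09, adjusted p = 0.00815 by limma; 0.0579 without replicate 1). The highest gradient of BIRC5 was below the lowest gradient of both partners. TPX2, which activates AURKA on the spindle, was higher at 3.61, 4.58 and 3.95 (0.35, SE 0.09, adjusted p = 0.0146 by limma). Securin and separase were not called. PTTG1, or securin, had 3.48, 2.32 and 3.22, and ESPL1, or separase, had 3.23, 3.59 and 2.66, so their order turned in gradient 2. PTTG1 has near-identical copies elsewhere in the genome and its value is uncertain for that reason.

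Coding length was set beside MRL, because short coding sequences had low loads in the whole table: the median gene of the shortest of 20 length bins had an MRL of 2.14, and bins above 1407 nt had medians between 3.28 and 3.40. Across mitotic genes the Spearman correlation of MRL with coding length was 0.35 (n = 53), and 0.25 over all genes with a coding length (n = 12715). In mitotic genes of up to 1000 nt it was 0.75 (n = 21), and above 1000 nt it was -0.51 (n = 32); over all genes these were 0.41 and 0.03. The points share their 9 libraries, and genes are not independent replicates. When each gene was centred on the median gene of its own length bin, 20 mitotic genes were higher (37.7%, where 24.4% of all genes were) and 5 were lower (9.43%, where 24.2% were), by limma.

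Against genes of like length, 21 of the 26 calls were kept. ANAPC11, ANAPC13, SKA2, CENPA and BIRC5 were no longer lower; their deviations were -0.15, -0.20, -0.19, -0.19 and -0.12 (adjusted p = 0.162, 0.117, 0.0801, 0.114 and 0.266 by limma). CDC26 (-0.63), ANAPC15 (-0.45), MIS12 (-0.38) and CENPH (-0.49) stayed lower. CENPN was the furthest from its length class at -1.16 (SE 0.10, adjusted p = 0.000146 by limma), with a coding sequence of 1020 nt whose bin had a median of 3.28. AURKB, CENPM, SPC24 and CENPW joined the higher genes. CENPW turned from -0.20 against the median gene (adjusted p = 0.106 by limma) to 0.37 against like length (SE 0.07, adjusted p = 0.00383). The largest positive deviation was that of MAD2L1 at 0.49 (SE 0.06, adjusted p = 0.000565), whose coding sequence is 618 nt, the same as that of MIS12, which was lower.

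**Figure D3:**
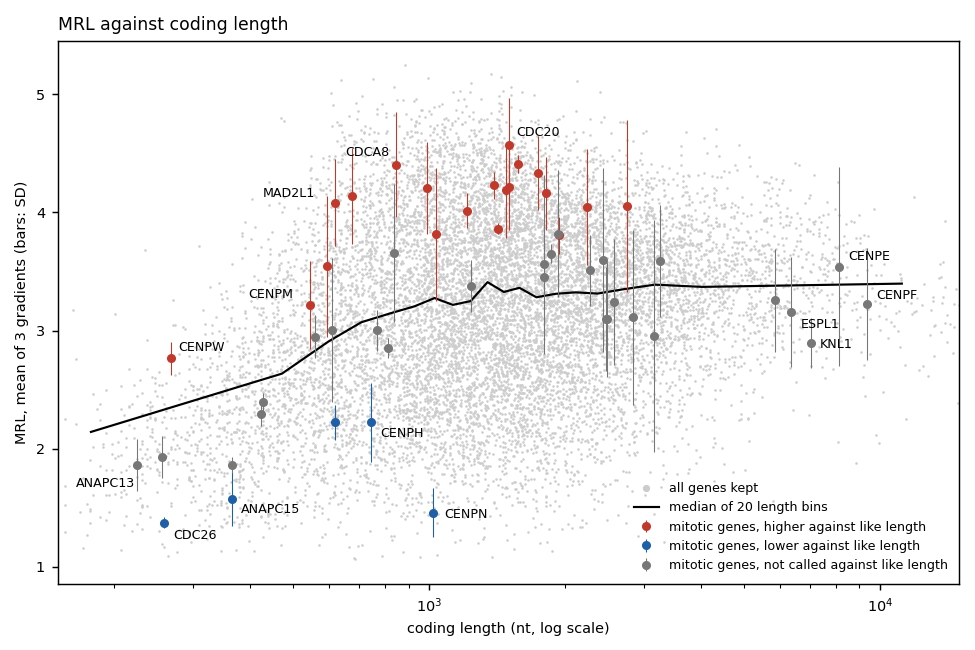
MRL (mean of 3 gradients, bars: SD) against coding length in nt on a log axis, with all genes kept in grey and the medians of 20 length bins as a line; colour gives the call of limma's test against genes of like length. CENPW lies above the line and CDC26 below it at nearly the same length, and CENPN lies at 1.46 where its bin has a median of 3.28.

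The fractions were next compared directly, by limma on log2(normalized count + 1) over the 9 libraries, which tests where along the gradient an mRNA was gained or lost. Fraction was the only term in this fit, so the pairing of libraries by replicate number was left out of it. The 3 comparisons share libraries, so their results are not independent. Between heavy polysomes and monosomes, 18 mitotic genes were higher in heavy polysomes (34.0%, where 24.7% of all genes were) and 10 were lower (18.9%, where 24.4% were). In 21 genes all 3 heavy polysome libraries lay above all 3 monosome libraries (31.4% of all genes did), and in 11 all lay below (29.0% of all genes did). The 10 lower genes were those with a lower MRL, and the 18 higher ones were the 16 with a higher MRL, CENPE and NDC80; MRL is computed from the same libraries. SPC25 had the largest difference toward heavy polysomes. Its normalized counts were 390, 289 and 199 in monosomes and 1584, 1009 and 1503 in heavy polysomes, a log2 difference of 2.24 (SE 0.36, adjusted p = 0.000333 by limma). CDC26 had the largest toward monosomes, with 3605, 2033 and 4345 in monosomes and 129, 94.0 and 160 in heavy polysomes (-4.65, SE 0.50, adjusted p = 3.18e-05 by limma). The groups did not overlap for either gene. CENPE (1.42, adjusted p = 0.0404) and NDC80 (1.04, adjusted p = 0.0404) were close to the threshold, and CENPE did not pass on the recovered reads by edgeR (0.0649) or DESeq2 (0.0564). Without replicate 2 both were lost, CENPE at 0.44 (adjusted p = 0.206) and NDC80 at 0.63 (adjusted p = 0.0631) by limma. Without replicate 1, 10 mitotic genes were higher and 8 lower, and without replicate 3, 11 were higher and 9 lower. Shares of all genes are not given for these fits, so the lost calls cannot be read as particular to mitotic genes. AURKA, CDC25C, WEE1, BUB3 and BIRC5 were lost in both cases, PLK1, PKMYT1, NDC80, CENPH and CDCA8 without replicate 1, and FZR1, INCENP and TPX2 without replicate 3.

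From monosomes to light polysomes, 4 mitotic genes were higher (7.55%, where 8.47% of all genes were) and 4 were lower (7.55%, where 10.2% were). Libraries did not overlap in 8 genes upward (17.6% of all genes) and 7 downward (18.1% of all genes). The 4 higher genes were CENPE, CENPW, SPC25 and MAD2L1, and the 4 lower ones were CDC26, CENPN, ANAPC15 and ANAPC2. CENPW had normalized counts of 1805, 625 and 1710 in monosomes and 6417, 2591 and 7237 in light polysomes (1.99, SE 0.49, adjusted p = 0.0129 by limma). CENPE had 343, 61.6 and 194 in monosomes against 773, 380 and 928 in light polysomes (2.01, SE 0.54, adjusted p = 0.0183 by limma). Library 2 was the lowest of both fractions for each gene, and each gene was higher in light polysomes in 3 of 3 replicates. ANAPC2, the cullin subunit of the APC/C, had its lowest counts in light polysomes, with 254, 230 and 174 in the monosome libraries, 72.9, 47.5 and 64.9 in the light and 127, 252 and 146 in the heavy polysome libraries. It was lower in light polysomes than in monosomes (-1.82, SE 0.35, adjusted p = 0.00311 by limma) and higher in heavy than in light polysomes (1.44, SE 0.35, adjusted p = 0.00988 by limma). Light polysomes held 14.0% ± 4.3 of the ANAPC2 signal, and its MRL was not called. CENPT, a centromere protein outside the 54 genes, had the same pair of calls (-1.42, adjusted p = 0.035, and 1.67, adjusted p = 0.0131, by limma). Without light polysome replicate 2, MAD2L1 (adjusted p = 0.0711) and ANAPC15 (0.0668) were lost and CENPF (0.00843) and KNL1 (0.0427) were gained, by limma. Leaving out replicate 3 instead left 0 genes higher by limma, with 4 higher at an unadjusted p under 0.05.

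From light to heavy polysomes, 14 mitotic genes were higher (26.4%, where 14.7% of all genes were) and 12 were lower (22.6%, where 17.5% were). Libraries did not overlap in 17 genes upward (21.3% of all genes) and 12 downward (22.1% of all genes). CDC20 had the largest gain, with 465, 752 and 369 in light and 2006, 2202 and 2328 in heavy polysomes (2.10, SE 0.38, adjusted p = 0.00682 by limma), and its step from monosomes to light polysomes was not called. BUB3 (1.60), CDCA8 (1.59), the coactivator FZR1 (1.57) and CDC25A (1.55) followed. CENPA had the largest loss, with 2470, 770 and 2463 in light and 358, 202 and 334 in heavy polysomes (-2.53, SE 0.49, adjusted p = 0.00682 by limma). CENPW fell by 2.21, so its mRNA was gained at the first step and lost at the second. KNL1 (-1.09, adjusted p = 0.0444 by limma) and CENPK (-1.07, adjusted p = 0.0205) were also lower in heavy polysomes, although neither had a called MRL. Among the kinases PLK1, AURKA and BUB1 were higher in heavy polysomes, BUB1 only narrowly (0.89, adjusted p = 0.0479 by limma), and with the replicate number as a block BUB1 did not pass (0.0576). Without light polysome replicate 2, 19 genes were higher and 14 lower, given without shares of all genes. Leaving out replicate 1 or replicate 3 left 0 of the 53 genes called in either direction by limma. Almost no gene of the whole table was called in these fits, so the loss was not particular to mitotic genes. At an unadjusted p under 0.05, 8 mitotic genes were higher and 9 lower without replicate 1. Without replicate 3, 9 were higher and 10 lower at that level. On the 9 libraries edgeR called 14 higher and 13 lower and DESeq2 15 and 13, also given without shares of all genes.

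**Figure D4:**
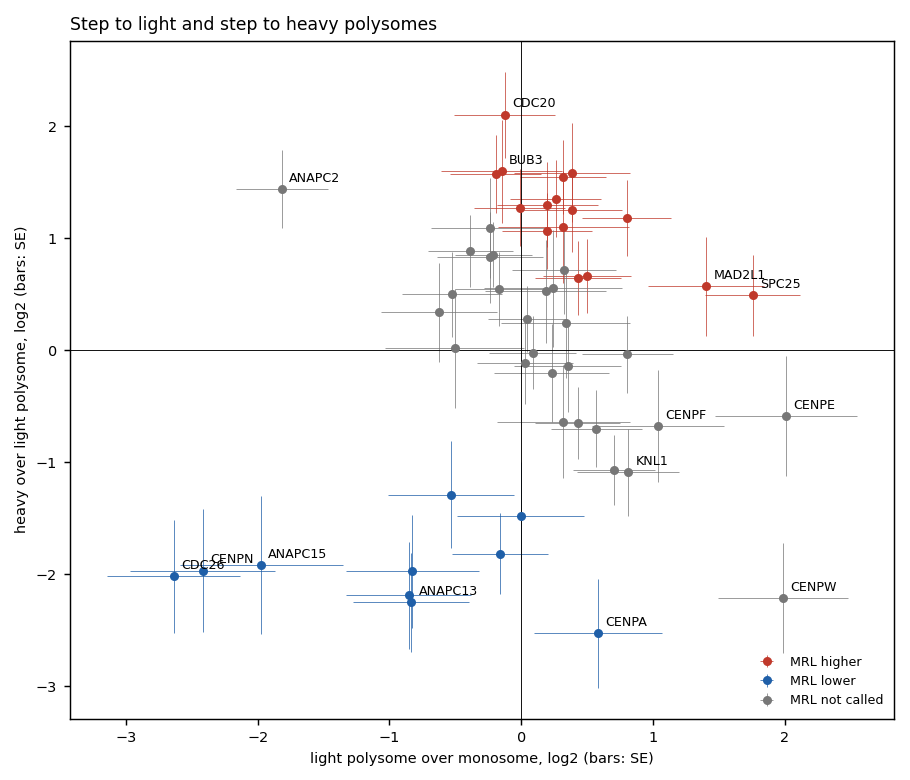
Log2 difference between light polysomes and monosomes (x axis) and between heavy and light polysomes (y axis) for each mitotic gene, from limma on log2(normalized count + 1), with SE bars and the MRL call as colour; the axes share the light polysome libraries. CDC20 lies high with no gain on the x axis (2.10 on the y axis), CENPW lies at 1.99 and -2.21, and CDC26 and CENPN are negative on both.

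Gradient 2 differed from gradients 1 and 3 along coding length, and the long mitotic mRNAs showed it. Of the 15 mitotic genes with a coding sequence over 2000 nt, 14 had their highest MRL in gradient 2 (93.3%, and 63.4% of all such genes), with a median of 0.79 above the mean of gradients 1 and 3 (0.38 for all such genes). ANAPC5 was the exception. Of the 21 genes with up to 1000 nt, 15 were lowest in gradient 2 (71.4%, and 70.9% of all such genes). The largest positive differences were those of BUB1B, CENPE and ANAPC4, and the lowest those of SPC24 and PTTG1. Over the mitotic genes the MRL of gradients 1 and 3 correlated at a Spearman rho of 0.91, that of 1 and 2 at 0.58 and that of 2 and 3 at 0.61 (n = 53, given as a description). The monosome library of replicate 2 also held the lowest share of mitochondrial reads and the highest share of ribosomal protein reads, and its light polysome library stood apart; their part in this pattern was not tested.

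**Figure D5:**
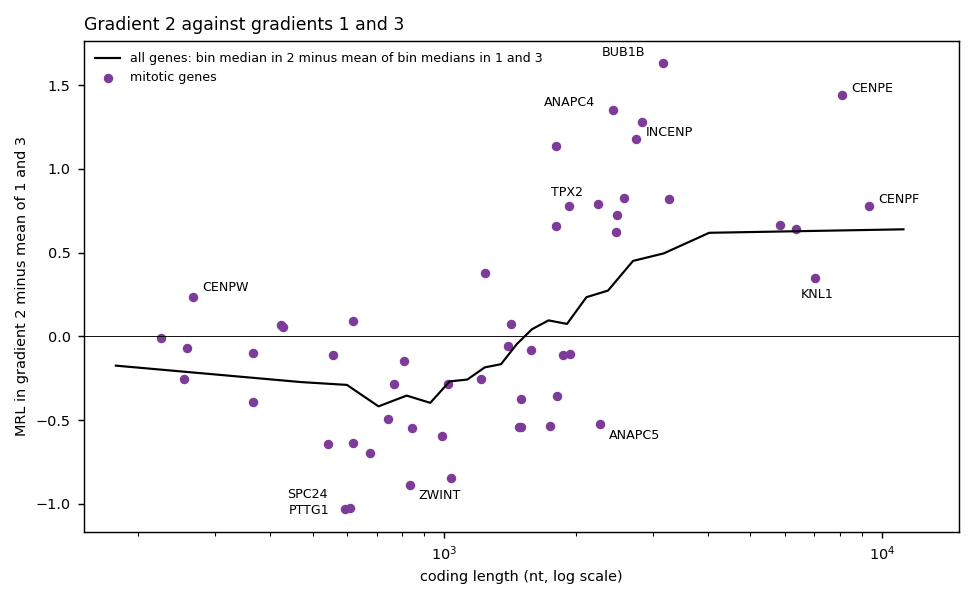
MRL in gradient 2 minus the mean of gradients 1 and 3 for each mitotic gene, against coding length in nt on a log axis; the line gives the same difference for the medians of 20 length bins of all genes. Of the genes over 2000 nt, 14 of 15 were highest in gradient 2, whereas most genes under 1000 nt lie below 0.

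Start sites and leader sequences were read from the annotated transcripts, as features that the choice of genes did not use. The contexts of the 4 genes with the highest and the 6 with the lowest MRL are shown, because initiation begins there; they run 5′ to 3′ from 9 bases before the start codon, and capitals mark the base 3 positions before it, the start codon and the base after it.
CDC20: ggcgctCccATGG
CDC25A: ggcgccGccATGG
CDCA8: ccgagcGccATGG
CDC25B: cccgccGcgATGG
CDC26: gacttcAgtATGC
CENPN: gccaaaGagATGG
ANAPC15: ctaggaGccATGT
ANAPC13: tgcaggAaaATGG
SKA2: ctattcAacATGG
ANAPC11: tctgctGccATGA
A purine at that upstream position, the base most favoured in vertebrate start sites, was present in 15 of 16 genes with a higher MRL and in 10 of 10 with a lower one, beside 86.3% of the 12376 genes kept whose annotated transcript gives this context. CDC20, at the top of the order, was the one higher gene without it. A G after the start codon was present in 10 of 16 higher and 6 of 10 lower genes, beside 53.0% of those genes. For upstream ATG triplets, the 5′ leader held none in 9 of 16 higher genes, in 13 of 27 genes not called and in 1 of 10 lower genes, beside 46.8% of the 12715 genes kept with a gene model. The 1 lower gene without one was CENPH. CDC26 had 6, MIS12 had 8, and CDC25B, with a high MRL, had 5. These counts describe 1 annotated transcript per gene and were not tested, and which transcript the cells used was not analysed here.

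In the authors' deposited table, 12 of the mitotic genes had the strict class heavy polysome (22.6%, where 13.0% of all genes kept did), 6 monosome (11.3%, where 12.2% did) and 2 light polysome (3.77%, where 3.94% did). The 6 of the monosome class were CDC26, CENPN, ANAPC15, ANAPC13, SKA2 and ANAPC11, and the 2 of the light polysome class were CENPA and CENPW. The remaining 33 were unassigned or mixed in the authors' deposited table. Per kb of transcript the mean normalized count was highest for PTTG1 (4589), CENPW (3507) and AURKB (2361) and lowest for KNL1 (14.6), INCENP (16.8) and CENPC (19.4). The small APC/C subunits, with their low MRL, had a median level of 1882 per kb, and the larger subunits had 234. The Spearman correlation of MRL with this level was -0.26 over mitotic genes (n = 53) and 0.03 over all genes (n = 12715). The level is a mean over fractions that were each scaled to the same typical gene, so it is not total mRNA abundance.

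A second list of 57 mitotic genes, covering other kinetochore subunits, mitotic kinesins, condensin and cohesin, was set beside the first; 56 were kept and NUSAP1 was not analysed here. Of the 56, 10 were higher (17.9%, where 22.0% of all genes were) and 4 were lower (7.14%, where 24.7% of all genes were) than the median gene by limma, with a median deviation of 0.08. The 3 highest were RAD21, the cohesin subunit cut by separase (4.61 ± 0.04, SD, n = 3), TRIP13, the ATPase that takes MAD2 complexes apart (4.59 ± 0.39), and the centrosomal kinase NEK2 (4.30 ± 0.34). The 3 lowest were ANAPC16, a further small APC/C subunit (1.82, 1.79 and 1.85 in gradients 1, 2 and 3), and the histone-fold centromere proteins CENPS (2.00, 1.88 and 2.09) and CENPX (2.11, 1.84 and 2.26). ANAPC16 lay -0.80 from the median gene (SE 0.09, adjusted p = 0.000536 by limma), and its coding sequence is 333 nt. Its values fell inside the range of the 4 small APC/C subunits named above.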

How the data were processed

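HEK293 polysome fractions were sequenced as single-end reads of 75 nt, per the labels. Gene counts came from featureCounts with GRCh38, per the submitters' processing notes; the aligner, strand setting and treatment of shared reads were not given in the sources used here. Each deposited signal value is a normalized count, a gene's reads divided by 1 size factor; whole reads were recovered for 100% of values at a tolerance of 0.01, and steps gave the depths reported. This scaling sets the typical gene equal in all libraries, so the amount of RNA per fraction was not measured. The deposited percent is the part of a gene's normalized count that lay in each fraction of a replicate, recomputed to within 5.5e-08. The authors' MRL score was recomputed to within 4.61e-09 with weights of 1, 2.5 and 6. The deposited log2 ratios, the adjusted p-value and the transcript lengths were not used, since their contrast or source is not stated.

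The filter required a mean of 10 recovered reads and reads in every gradient, and kept 12720 of 13661 genes. Because the values are normalized counts, limma 3.58.1 (trend) was applied to log2(normalized count + 1), which understates changes of low genes; edgeR 4.0.16 and DESeq2 1.42.0 on the recovered reads were alternatives. Analyses used R 4.3.3 and Python 3.11.15. The fits were also run on simulated data with independent libraries and no replicate effect. That simulation does not cover the differences between gradients seen here. Gene models and transcript sequences came from GENCODE release 29 (13658 identifiers matched). Full values were given for the 6 highest and 6 lowest genes by MRL, the extremes of each role group and 10 named regulators. The genes, lists and naming rule were chosen with earlier results of these data known. Fractions with the same number were split from 1 biological replicate and 1 labelled batch, so the numbers pair the libraries. Same-number deviations correlated between -0.54 and 0.39, and different-number deviations between -0.45 and 0.39. These correlations did not set same-number pairs apart, so the pairing rests on the labels.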

Additional observations from a re-analysis of the deposited data

How the results depend on the processing

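The ratio of polysome to monosome signal in place of MRL gave 9 mitotic genes higher and 6 lower, and over all genes 1664 and 1973 of 12720. Centring on genes of like coding length gave 20 and 5. CENPW reversed under both, to 1.12 by the ratio and 0.37 against like length, on the log2 scale. Leaving out 1 replicate in turn gave 8 to 20 genes with a higher and 9 to 13 with a lower MRL. The same step gave 10 to 21 higher and 8 to 12 lower between heavy polysomes and monosomes, and 0 to 8 higher and 3 to 5 lower between light polysomes and monosomes. Between heavy and light polysomes it gave 0 to 20 higher and 0 to 15 lower, and over all genes 0 and 1 were called without replicates 1 and 3. Every such fit used fewer libraries, and the fit without replicate 2 was the one that gave 20 and 15. The cause of the difference was not tested. With the replicate number as a block, which follows the pairing of the fractions, 18 were higher and 10 lower for heavy against monosome, 4 and 4 for light against monosome, and 13 and 12 for heavy against light polysomes; BUB1 was the only call that changed among the mitotic genes. The mean gene as centre gave 19 higher and 10 lower. Other weights, pseudocounts and filters, edgeR, DESeq2 and the fit without light polysome replicate 2 kept each count within 1.5 times that reported. With 3 gradients, and as few as 14 reads in a library for INCENP, small differences were not detectable.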
